A study of Mus musculus with 10 samples.

Results

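Transcripts of 10 G protein-coupled receptors through which hormones and nutrients act on islet cells were followed in αTC1 cells, a mouse line of glucagon-producing α cells that came from a pancreatic tumour. The receptors were taken by gene symbol, and all 10 were found among the 33212 genes counted. They bind glucagon (Gcgr), glucagon-like peptide (Glp1r), gastric inhibitory polypeptide (Gipr), somatostatin (Sstr2 and Sstr3), vasopressin (Avpr1b), adrenaline and noradrenaline (Adrb1 and Adra2a), long-chain fatty acids (Ffar1) and extracellular calcium (Casr). Polyadenylated RNA had been sequenced from cells kept for 48 h in 10 μM enzalutamide, an antagonist of the androgen receptor, or in its solvent DMSO. Both groups grew in low-glucose DMEM with serum and antibiotics, and each had 5 libraries, labelled as biological replicates. Library totals ranged from 59557697 to 68603842 counts per library, and 3 counts, the most that a count of 0 allows, equalled 0.0439 to 0.0497 CPM (counts scaled to 1e6 per library, with the library total adjusted by the trimmed mean of M values). This limit, at 95% confidence, covers counting error only. It holds if the values are counts of reads, which the sources used here do not state.

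Receptors of this kind span the membrane and pass a signal to heterotrimeric G proteins. Those coupled to the stimulatory protein raise cyclic AMP, those coupled to the inhibitory proteins lower it, and those coupled to the Gq family release calcium through phospholipase C. In α cells adrenaline, vasopressin and gastric inhibitory polypeptide are known to promote glucagon release, and somatostatin from neighbouring δ cells restrains it. As a check on the label, the levels of 8 genes listed as α cell markers were summed, though Pcsk2 is not particular to α cells. The sum lay between 19392.5 and 20631 CPM in DMSO and between 11431 and 12737 CPM in enzalutamide. Most of it was Gcg, with group means of 15269 and 8466 CPM. All 8 of these markers could be tested. Irx1, Irx2 and Pcsk2 did not pass (log2 fold changes 0.02, 0.01 and 0.03), and 5 fell and 0 rose. By the same test 18.8% of all genes tested fell and 19.0% rose. The part of the marker fall in the receptor results was not tested. Of the markers of other cells, Ins1, Pdx1, Sst, Ppy and the leukocyte gene Ptprc had 0 counts in every library, whereas the β cell genes Ins2 and Mafa had counts in all 10, with group means of 0.626 and 0.409 CPM for Ins2 and 1.03 and 0.989 CPM for Mafa in DMSO and enzalutamide. Ghrl, Sox9, Cela1 and Pecam1 were also detected, at 0.95 to 1.01, 10.1 to 11.5, 6.11 to 6.73 and 0.28 to 0.313 CPM as group means. The fibroblast gene Col1a1 had counts in 4 libraries and reached 1.03 CPM in an enzalutamide library. Iapp, Hhex, Cpa1 and Col3a1 had counts in 1 library each, at most 9. Of the 20 markers of other cells, 6 could be tested and 0 passed, with 1 (Sox9) at an unadjusted p under 0.05. The summed level of the 5 β cell markers was 1.03 to 2.84 CPM in DMSO and 0.885 to 2.13 CPM in enzalutamide, and that of the 2 δ cell markers at most 0.119 CPM. In bulk RNA, fewer cells of a type and less RNA per cell cannot be told apart.

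After enzalutamide the vasopressin receptor gene Avpr1b and the calcium-sensing receptor gene Casr fell, and the somatostatin receptor gene Sstr3 rose by a margin that depended on single libraries. Avpr1b, by far the most abundant of the 10, was 1.47-fold lower and Casr 1.96-fold lower. Sstr2, Adra2a and Gipr were detected and did not pass the test. Glp1r, Ffar1, Adrb1 and Gcgr were absent or close to it, with 0, 1, 7 and 8 counts over all 10 libraries together.

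Of the 10 genes, 6 had enough counts to be tested for a difference between the groups. In the edgeR quasi-likelihood fit of all 14156 genes that could be tested, with p-values adjusted by the Benjamini-Hochberg method, 2 of the 6 were lower and 1 was higher at an adjusted p under 0.05. Over all genes tested 37.8% passed, 18.8% lower and 19.0% higher. With 6 genes, a count of 3 does not set the receptors apart from this background. The median log2 fold change (enzalutamide against DMSO) was -0.03 for the 6 receptors and 0.01 for all genes tested. For 2 of the 6, Avpr1b and Casr, no enzalutamide library reached the range of the DMSO libraries, against 26.8% of all genes tested (13.7% lower and 13.1% higher).

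**Figure D1:**
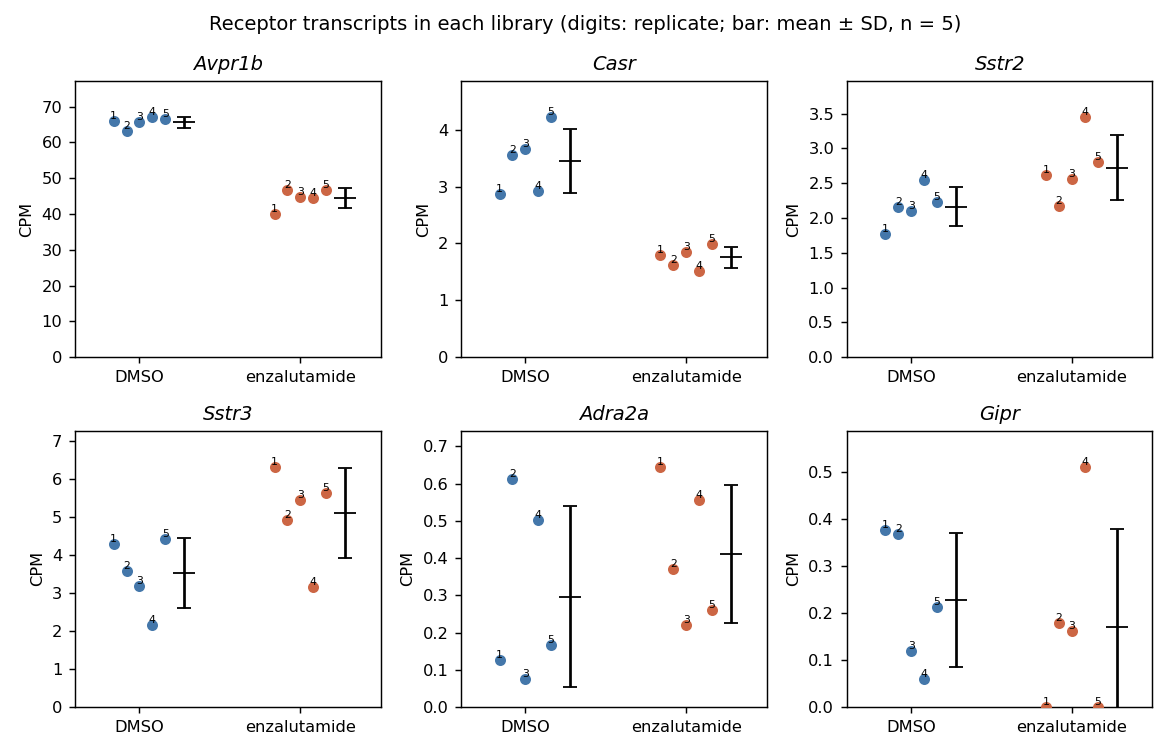
CPM (vertical axis, starting at 0) of the 6 receptors that could be tested, in each of 5 DMSO and 5 enzalutamide libraries. Points are libraries with their replicate number, and bars are the mean ± SD (n = 5), cut at 0 for Gipr. The 2 groups lie apart for Avpr1b and Casr and overlap for the other 4 genes.

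Of the adrenergic receptor genes 1 was at trace level and 1 was low but present. Adrb1, the β-adrenergic receptor that couples to the stimulatory G protein (chromosome 19, 56722199 to 56733113 of GRCm38/mm10), had 7 counts in DMSO library 4 and 0 counts in the other 9 libraries. Adra2a, the α2-adrenergic receptor that couples to the inhibitory G proteins (chromosome 19, 54044151 to 54048982), had counts in all 10 libraries. Its values were 0.125, 0.613, 0.0743, 0.503 and 0.167 CPM in DMSO libraries 1 to 5, and 0.645, 0.372, 0.22, 0.555 and 0.261 CPM in enzalutamide libraries 1 to 5. DMSO libraries 2 and 4 were within the enzalutamide range, and the groups overlapped. The group means were 0.297 ± 0.244 and 0.411 ± 0.185 CPM (SD, n = 5 each), a difference of 0.46 ± 0.533 on the log2 scale (SE; edgeR adjusted p = 0.543). The 95% interval of the fold ran from 0.632 to 3.01, so with this spread neither a fall nor a rise of moderate size could be detected. In DMSO the counts of Adra2a, between 5 and 40, had a coefficient of variation of 82.5%. Counting error alone gives 22.6% if these are counts of reads.

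The receptors of the glucagon family of peptides are related proteins that all couple to the stimulatory G protein, and none of the 3 was above 0.51 CPM in any library. Glp1r (chromosome 17, 30901817 to 30940791) had 0 counts in every library. Gcgr (chromosome 11, 120530699 to 120538986) had 6 counts in enzalutamide library 2, 2 counts in enzalutamide library 4 and 0 elsewhere. Gipr (chromosome 7, 19156061 to 19166127) had counts in 8 libraries. In DMSO libraries 1 to 5 it was at 0.375, 0.368, 0.119, 0.0592 and 0.213 CPM, and in enzalutamide libraries 1 to 5 at 0, 0.179, 0.161, 0.51 and 0 CPM. The highest value and both zeros belonged to enzalutamide libraries, so that the DMSO values fell inside the enzalutamide range. Gipr averaged 0.227 ± 0.143 and 0.17 ± 0.208 CPM (log2 fold change -0.40, SE 0.793, adjusted p = 0.741, edgeR), with a 95% interval of the fold from 0.238 to 2.43. The log2 fold change of Gipr was -1.37 without enzalutamide library 4, the highest, -1.55 in limma-voom and -1.27 in limma-trend with a pseudocount of 1, and it passed in none of the 19 alternatives that gave a value.

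Ffar1, the long-chain fatty acid receptor that couples to Gq proteins (chromosome 7, 30857390 to 30861564), had 1 count in DMSO library 4 and 0 counts in the other 9. With counts in so few libraries, no arrangement of Gcgr, Adrb1 or Ffar1 over 5 against 5 libraries could have passed a test (the smallest exact two-sided permutation p is 0.444 for Gcgr and 1 for the other genes), and their levels are given as a description.

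Avpr1b encodes the vasopressin receptor of the pituitary and the islet, which couples to Gq proteins (ENSMUSG00000026432; chromosome 1, 131599239 to 131612000, plus strand). It was at 65.9, 63.2, 65.6, 67.1 and 66.5 CPM in DMSO libraries 1 to 5. In enzalutamide libraries 1 to 5 it was at 40, 46.8, 44.7, 44.4 and 46.8 CPM. Every enzalutamide value was below every DMSO value, and enzalutamide library 1 was the lowest. The mean fell from 65.7 ± 1.5 to 44.5 ± 2.79 CPM (SD, n = 5 each), with a log2 fold change of -0.56 (SE 0.0452, 95% interval -0.66 to -0.46, adjusted p = 4.43e-08, edgeR). The 95% interval of the fold, 0.635 to 0.725, was the narrowest among the 6 receptors tested. Avpr1b kept its direction and its call in all 20 alternative analyses.

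Casr encodes the calcium-sensing receptor, which binds extracellular calcium and responds to amino acids (ENSMUSG00000051980; chromosome 16, 36493696 to 36562141, minus strand). Its values were 2.88, 3.55, 3.66, 2.91 and 4.22 CPM in DMSO libraries 1 to 5, and 1.8, 1.62, 1.85, 1.52 and 1.98 CPM in enzalutamide libraries 1 to 5. The lowest DMSO value was above the highest enzalutamide value. Casr fell from 3.45 ± 0.562 to 1.75 ± 0.186 CPM (SD, n = 5 each), with a log2 fold change of -0.97 (SE 0.157, 95% interval -1.30 to -0.64, adjusted p = 9.39e-05, edgeR). Among all genes tested, 106 passed lower with a change at least as far down, Casr included. Casr also passed in all 20 alternatives, with log2 fold changes between -1.03 and -0.89. Within each library, per kilobase of exon, Avpr1b was 18.5 to 27 times Casr in DMSO and 26 to 34.3 times in enzalutamide, ranges that overlapped.

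**Figure D2:**
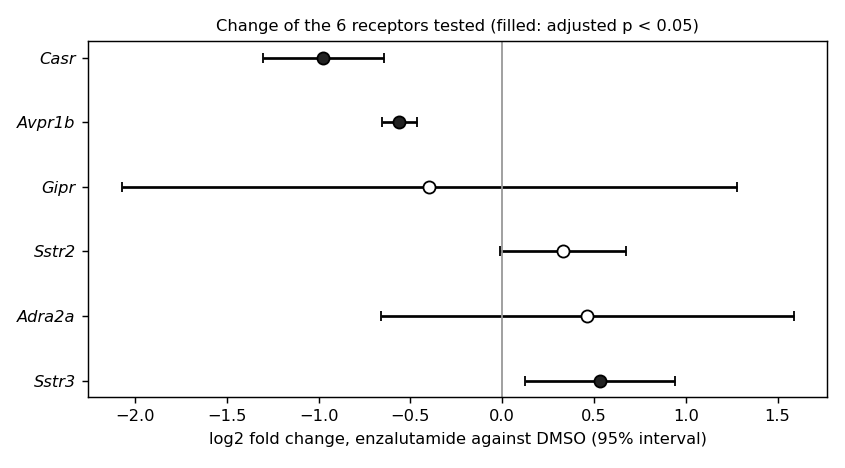
Log2 fold change of enzalutamide against DMSO (horizontal axis) with its 95% interval for the 6 receptors tested (5 libraries a group). Filled points passed at an adjusted p under 0.05, and the intervals of Sstr2, Adra2a and Gipr include 0.

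Somatostatin acts through receptors that couple to inhibitory G proteins, and the subtypes encoded by Sstr2 and Sstr3 were both present. Sstr3 (ENSMUSG00000044933; chromosome 15, 78537008 to 78544685, minus strand) was at 4.3, 3.59, 3.2, 2.15 and 4.42 CPM in DMSO libraries 1 to 5. In enzalutamide libraries 1 to 5 it was at 6.32, 4.93, 5.45, 3.17 and 5.64 CPM. All enzalutamide libraries other than library 4 were above every DMSO library, and library 4 was the lowest of its group in both treatments. Sstr3 rose from 3.53 ± 0.925 to 5.1 ± 1.19 CPM (SD, n = 5 each), with a log2 fold change of 0.53 (SE 0.194, 95% interval 0.12 to 0.94, adjusted p = 0.0392, edgeR). The adjusted p of Sstr3 was 0.0631, 0.0844 and 0.0948 without DMSO library 2, 3 or 4, and 0.109, 0.0785 and 0.0716 without enzalutamide library 1, 3 or 5. It was 0.0997 with no filter on low counts, 0.0523 in limma-voom and 0.0595 with trends of GC content and length removed, so the rise passed in 11 of 20 alternatives, always with a positive log2 fold change (0.40 to 0.66).

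Sstr2 (ENSMUSG00000047904; chromosome 11, 113619342 to 113626028, plus strand) was at 1.77, 2.16, 2.1, 2.54 and 2.23 CPM in DMSO libraries 1 to 5 and at 2.62, 2.17, 2.56, 3.45 and 2.8 CPM in enzalutamide libraries 1 to 5. Enzalutamide library 4 was the highest and enzalutamide library 2 lay among the DMSO values. The means were 2.16 ± 0.279 and 2.72 ± 0.468 CPM (log2 fold change 0.33, SE 0.163, 95% interval -0.01 to 0.68, adjusted p = 0.125, edgeR), a difference that did not pass here or in any of the 20 alternatives (adjusted p between 0.0688 and 0.312). The interval includes the log2 fold change of Sstr3, and whether the 2 subtypes responded differently was not tested. Per kilobase of exon, Sstr3 was 0.418 to 1.21 times Sstr2 in DMSO and 0.455 to 1.2 times in enzalutamide, and the lowest ratio in each group came from library 4.

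**Figure D3:**
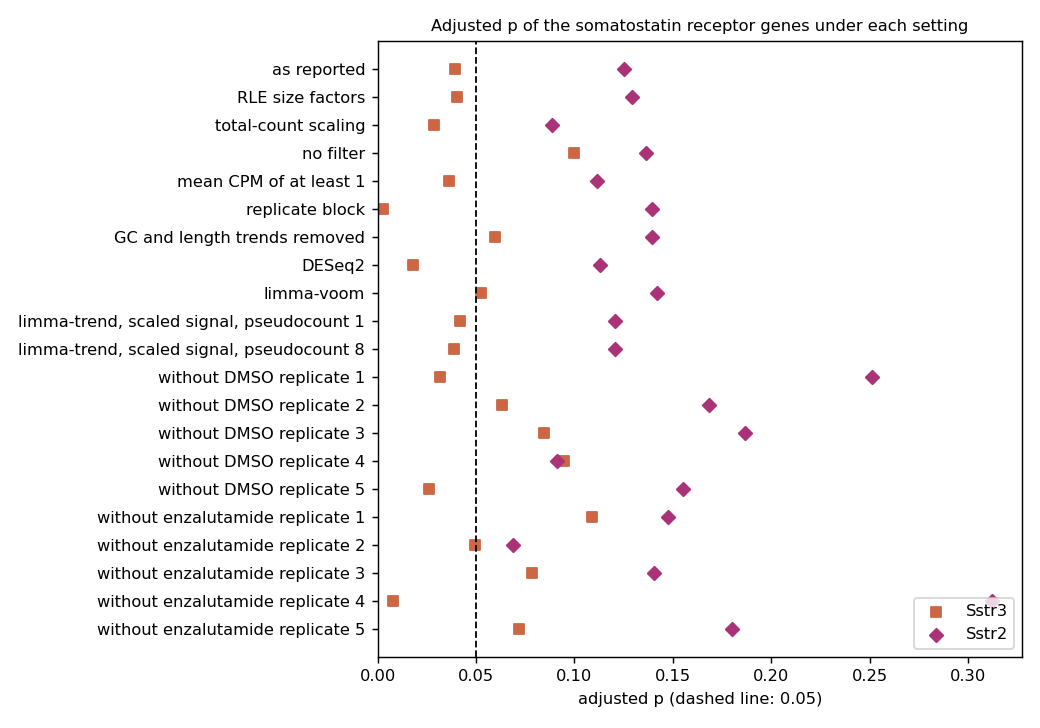
Adjusted p (horizontal axis, from 0) of Sstr3 and Sstr2 in the analysis as reported and in the 20 alternatives. Squares of Sstr3 fall on both sides of the dashed line at 0.05, and diamonds of Sstr2 stay to its right.

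The 250 bases before the RefSeq start are shown for Casr, the receptor with the largest fold among those that passed, and for Sstr2, the one receptor whose window held a full cAMP response element, the sequence bound by factors that answer to the cyclic AMP signal. Windows from 250 bases before to 50 after the start were found for 8 of the 10 receptors (RefSeq, GRCm38.p6), not for Avpr1b and Gipr. The Casr stretch lies at chr16:36562135-36562384 on the minus strand and that of Sstr2 at chr11:113619077-113619326 on the plus strand, and capitals mark the match.
Casr: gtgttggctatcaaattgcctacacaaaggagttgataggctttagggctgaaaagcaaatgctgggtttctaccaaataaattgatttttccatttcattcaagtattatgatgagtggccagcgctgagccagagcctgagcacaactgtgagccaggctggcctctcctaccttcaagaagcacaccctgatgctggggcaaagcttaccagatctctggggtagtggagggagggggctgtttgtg
Sstr2: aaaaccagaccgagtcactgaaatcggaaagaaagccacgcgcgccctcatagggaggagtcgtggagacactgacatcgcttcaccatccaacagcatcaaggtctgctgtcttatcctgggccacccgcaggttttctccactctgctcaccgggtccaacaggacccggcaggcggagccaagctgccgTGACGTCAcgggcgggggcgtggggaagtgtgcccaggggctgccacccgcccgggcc

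The letters searched, on both strands, were TGACGTCA for the full cAMP response element, TGACG for its core, which the full element contains, TGANTCA for the AP-1 site and TGATGNAA for the composite site of ATF4. The full element begins 58 bases before the Sstr2 start, and 1.79% of 32851 RefSeq windows of this length hold 1. The core was matched in the windows of Sstr2, inside its full element, and in windows of Adra2a, Adrb1 and Sstr3. It is held by 20.8% of all windows, those with the full element included. Sstr3 had more than 1 window, and not all of them held the core. Neither the AP-1 nor the ATF4 letters were found in any window of the 8 receptors (7.81% and 3.97% of all windows). None of the 4 motifs was found in the Casr window. These matches describe letters only.

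Levels of different genes were compared after division by exon length, as CPM per kilobase. In DMSO, Avpr1b was at 16.3 ± 0.373, Sstr2 at 1.01 ± 0.13, Sstr3 at 0.817 ± 0.214 and Casr at 0.73 ± 0.119 CPM per kilobase (SD, n = 5). The ranges of the last 3 overlapped (0.825 to 1.19, 0.497 to 1.02 and 0.61 to 0.895), so their order in DMSO is not resolved. In enzalutamide, Avpr1b was at 11.1 ± 0.694, Sstr2 at 1.27 ± 0.218, Sstr3 at 1.18 ± 0.276 and Casr at 0.372 ± 0.0394 CPM per kilobase. Every Casr value in enzalutamide (at most 0.42) lay below every value of Sstr2 and Sstr3 there (at least 1.01 and 0.733). Gipr and Adra2a followed at 0.0651 and 0.0614 in DMSO and 0.0488 and 0.085 in enzalutamide, with overlapping ranges. Avpr1b made up 84.4 to 87.2% of the summed level of the 10 receptors per kilobase in DMSO libraries and 75.6 to 81.4% in enzalutamide libraries.

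Among 110 listed receptors for hormones, transmitters and nutrients that were found in the count table, Avpr1b had rank 3 by level per kilobase. Above it were Gpr81 (also named Hcar1), the lactate receptor, at 71.3 in DMSO and 68.4 in enzalutamide, and Oxtr, the oxytocin receptor, at 56.9 and 29.9 CPM per kilobase. Below it came Npy1r, a receptor for neuropeptide Y (9.4 and 8.29), and Gpr119, which binds fatty acid amides (8.12 and 5.69). Galr3, also listed, was not analysed here. Of the 100 found besides the 10, 43 had 0 counts in every library and 21 could be tested. Of those 21, 6 fell and 1 rose. All genes tested gave 18.8% lower and 19.0% higher. Neither these 21 nor the lists described below were tested against this share.

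**Figure D4:**
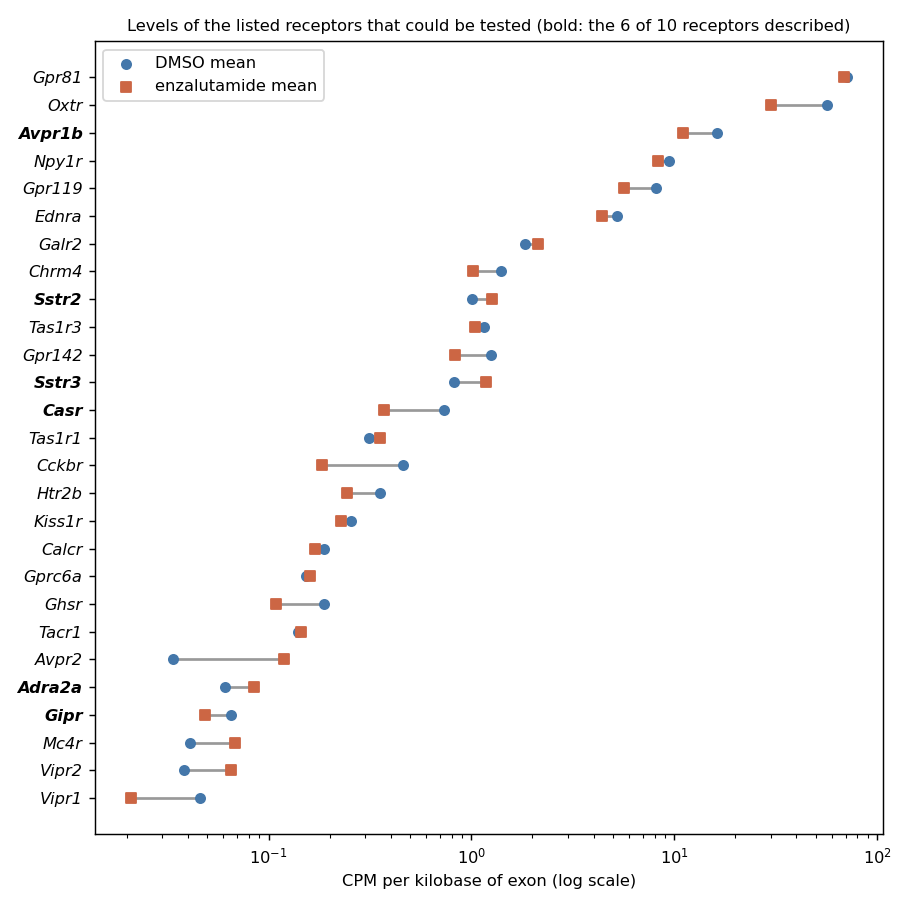
Mean CPM per kilobase of exon (horizontal axis, log scale) in DMSO (circles) and enzalutamide (squares) for the listed receptors that could be tested, ordered by level. Avpr1b has rank 3, Sstr2, Sstr3 and Casr lie near 1, and Adra2a and Gipr lie near the bottom.

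The other receptors closest to the 10 in kind were described from lists. In the somatostatin, vasopressin and oxytocin family, Oxtr fell from 272 ± 5.2 to 143 ± 6 CPM (-0.93 ± 0.0327 on the log2 scale, SE; edgeR adjusted p = 9.04e-13), with no overlap between groups. Avpr2, the renal vasopressin receptor, rose from 0.0977 ± 0.11 to 0.344 ± 0.119 CPM (adjusted p = 0.0492), but 81.3% of its exon length is shared with Arhgap4 on the opposite strand and its counts are therefore uncertain. The adjusted p of Avpr2 was 0.174 with no filter on low counts and between 0.0712 and 0.113 on omission of any of DMSO libraries 2 to 5 or of enzalutamide library 1, 3, 4 or 5. The other receptors of that family were close to absent, with 0 counts for Sstr4 and counts in 1 library each for Sstr1, Sstr5 and Avpr1a. No exon of the 10 receptors overlaps an exon of another annotated gene.

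In the list of nutrient and metabolite receptors 6 of 18 could be tested, 2 fell and 0 rose. Gpr119 fell from 18.4 ± 1.2 to 12.9 ± 1.31 CPM (log2 fold change -0.51, adjusted p = 2.96e-05, edgeR). Gpr142, which responds to aromatic amino acids, fell from 1.4 ± 0.215 to 0.926 ± 0.128 CPM (adjusted p = 0.0413), a call lost in 9 of 20 alternatives, among them each omission of DMSO library 3, 4 or 5 or enzalutamide library 1, 2, 3 or 5 (adjusted p up to 0.0997). Ffar2, Ffar3 and Ffar4, the other fatty acid receptors, had too few counts to test, with at most 18 counts in a library. Gpr81 did not pass (log2 fold change -0.06, adjusted p = 0.139). Of the 12 other class B receptors, the structural family to which the glucagon receptor belongs, 3 could be tested and 0 passed in edgeR, DESeq2 or limma-voom, with 0 at an unadjusted p under 0.05 in edgeR. Their best represented member was Calcr, the calcitonin receptor, at 0.734 ± 0.242 and 0.66 ± 0.193 CPM. Of 29 other adrenergic, monoamine and muscarinic receptors, 2 could be tested and 0 passed in edgeR, DESeq2 or limma-voom, with 0 at an unadjusted p under 0.05 in edgeR. Chrm4, a muscarinic receptor, led them at 2.01 ± 0.787 and 1.46 ± 0.495 CPM (adjusted p = 0.198).

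Other peptide hormone receptors gave 3 falls and 0 rises among 8 tested of 36 listed. Cckbr, the gastrin and cholecystokinin receptor, fell from 1.32 ± 0.195 to 0.524 ± 0.184 CPM (-1.33 ± 0.281 on the log2 scale, SE; edgeR adjusted p = 0.00111). Ednra, an endothelin receptor, fell by 0.23 and Npy1r by 0.18 on the log2 scale, the latter with an adjusted p of 0.0178 that became 0.0582 without DMSO library 5.

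Transcripts for the peptide ligands of these receptors were mostly absent or low. Gcg, the precursor of glucagon and glucagon-like peptide, was the abundant exception. It fell from 15269 ± 440.1 to 8466 ± 389 CPM (edgeR adjusted p = 5.74e-13), while its receptors Gcgr and Glp1r were at trace or 0. Sst, Gip and Avp, which encode somatostatin, gastric inhibitory polypeptide and vasopressin, had 0 counts in every library. Cort, whose peptide cortistatin also binds somatostatin receptors, was at 0.608 ± 0.178 and 0.451 ± 0.145 CPM and did not pass. Of the enzymes that make catecholamines, Ddc fell from 209 ± 4.95 to 138 ± 4.09 CPM (log2 fold change -0.60, adjusted p = 1.38e-10), Th was at 1.57 and 1.94 CPM (adjusted p = 0.382), and Dbh and Pnmt had 0 counts.

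Downstream of the receptors, 21 of 28 listed G protein subunit genes could be tested, and 7 rose and 3 fell, with a median log2 fold change of 0.05. No downstream list was tested against the 19.0% higher and 18.8% lower among all genes tested. Gnas, the stimulatory α subunit and the most abundant of them, fell from 4482 ± 106 to 3957 ± 137 CPM (-0.18 ± 0.0258 on the log2 scale, SE; edgeR adjusted p = 2.97e-05). Gna12, Gng4 and Gng5, an α subunit and a pair of γ subunits, rose by 0.28, 0.39 and 0.44 on the log2 scale. For each of Gnas, Gna12, Gng4 and Gng5 all values of 1 group lay beyond those of the other.

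Receptor kinases and arrestins, which switch off active receptors, and receptor activity-modifying proteins gave 2 rises and 2 falls among 10 tested of 13. Adrbk1 and Adrbk2, the receptor kinases also named Grk2 and Grk3, rose by 0.20 and 0.17. Grk5, another receptor kinase, fell from 46.3 ± 2.53 to 36.3 ± 2.61 CPM (adjusted p = 6.29e-05), and the arrestin-related Arrdc4 fell by 0.58 on the log2 scale. Among regulators of G protein signalling, which speed the return of α subunits to rest, 12 of 19 could be tested, 2 rose and 3 fell. Rgs4, the best represented of them, fell from 145 ± 4.14 to 90.4 ± 6.6 CPM (-0.68 ± 0.0441 on the log2 scale, SE; edgeR adjusted p = 2.54e-09), Rgs3 fell by 0.33, and Rgs2 and Rgs12 rose by 0.32 and 0.30.

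In the cyclic AMP arm 6 of 17 tested genes rose and 3 fell. Crtc3, a coactivator of CREB, rose by 0.44 and Prkar1b, a regulatory subunit of protein kinase A, by 0.58 on the log2 scale. Prkaca, a catalytic subunit of the kinase, fell by 0.19 and Crem, a cyclic AMP-responsive factor, by 0.43. Prkacb, another catalytic subunit, did not pass (log2 fold change -0.07, edgeR adjusted p = 0.0967). In the phospholipase C arm, on which Avpr1b and Casr act, 4 of 9 tested genes rose and 0 fell. Among all genes tested 19.0% rose and 18.8% fell, and whether either arm differs from this was not tested. Itpr2, a calcium release channel, rose from 0.794 ± 0.272 to 2.04 ± 0.498 CPM (1.36 ± 0.256 on the log2 scale, SE; edgeR adjusted p = 0.000428), and the phospholipase genes Plcb3, Plcb4 and Plcb1 rose by 0.46, 0.19 and 0.16. The adjusted p of Plcb1, 0.0264, became 0.0748, 0.0745, 0.0797 and 0.0513 when DMSO library 1, DMSO library 4, enzalutamide library 1 or enzalutamide library 3 was left out. The best represented gene of this arm, Prkd1, did not pass (log2 fold change -0.03, adjusted p = 0.646).

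Genes whose pattern over the 10 libraries was most like that of a receptor were sought among 10195 others with a mean of at least 5 CPM, by Pearson's r of log2 CPM, as a description. For Avpr1b these were Anp32e (r = 0.991), Fam3c (0.988) and Hsp90aa1 (0.987), and for Casr they were Idi1 (0.988), Dner (0.983) and Dlc1 (0.981). All 6 were lower in enzalutamide and share the step between groups. After removal of the group means r was 0.783, 0.711 and 0.679 for the Avpr1b genes. For the Casr genes it was 0.901, 0.847 and 0.915, in the same order. For Sstr3 the nearest were Gm1818 (0.942), Pigx (0.923) and Ccdc122 (0.905). None of these 3 passed the edgeR test between groups (adjusted p between 0.0538 and 0.166). Their r with Sstr3 was 0.926, 0.878 and 0.864 after removal of the group means. All these genes were picked for the highest r among 10195, so part of the height of r follows from the choice.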

How the data were processed

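The members and all gene lists were chosen with earlier results of these data known. The authors deposited a table of counts per Ensembl gene (33212 genes, whole numbers, 1 column per library) and a table of signal scaled by library (20240 genes). Per the submitters' processing notes, HISAT2, StringTie, DESeq2 and mm10 were used, without stated roles or versions, and whether the counts are of reads or of StringTie's estimates is not given in the sources used here, nor is the strand setting. In all 20039 genes matched by a unique symbol, the deposited signal times DESeq2's size factor gave the count within 0.01. The number of per-library columns not used is 0.

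Counts were tested in R 4.3.3 with edgeR 4.0.16 (quasi-likelihood test, trimmed mean of M values, filterByExpr with groups, which left 14156 genes, no covariates, Benjamini-Hochberg adjustment, threshold 0.05). Standard errors were derived from each log2 fold change and its F statistic (size over root of F), and 95% intervals use the t quantile of the fit. The biological coefficient of variation was 8.39%. For Gcgr, Adrb1 and Ffar1, which the filter removed, exact permutations of CPM were enumerated. Exon lengths, positions and overlaps came from GENCODE M21 (GRCm38/mm10), which held 96.3% of the identifiers, and 5 listed symbols were matched under older names. Alternatives were other scalings, filters, tools (DESeq2 1.42.0, limma 3.58.1) and the omission of each library. The pipeline was tested on simulated data. Counts of every pair of libraries within a group differed by more than the counting error of read counts (chi-square over its degrees of freedom at least 9.24). The labels do not say whether replicates were separate cultures, so the p-values reflect only variation among these libraries, which may be technical. Named were all 10 receptors, up to 4 passing genes per list with the lowest adjusted p, the gene of each list with the highest level per kilobase, and 3 most similar genes per passing receptor. Further names, among them those of absent genes, were chosen after their values were seen.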

Additional observations from a re-analysis of the deposited data

Results flagged for a closer look

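In DMSO library 4, Adrb1 was at 0.104 CPM (7 counts) and Ffar1 at 0.0148 CPM (1 count), while the other 4 DMSO libraries had 0. Where the rest of a group is at 0, any count stands apart by Dixon's criterion, so nothing is read from these values beyond the counts. If these are counts of reads, a count of 0 allows an expected count of up to 3. The single count of Ffar1 therefore does not set DMSO library 4 apart from the libraries at 0.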

How the results depend on the processing

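Of the 10 receptors, 2 were lower in every alternative, Avpr1b and Casr. The number higher, 1 as reported (Sstr3), was 0 with no filter on low counts, with GC and length trends removed and in limma-voom, and between 0 and 1 when each library was left out, which moved the receptors called in all between 2 and 3. The genes called over the whole table stayed within 1.5 times 5358 in all 20 alternatives, between 4888 and 5354 with 1 library left out. With total-count scaling 60.7% of calls were higher, against 50.3% as reported, and the median log2 fold change of all genes moved from 0.01 to 0.04. Prkd1, which did not pass, changed sign with total-count scaling (log2 fold change 0.00777). Gipr, Adra2a, Calcr, Cckbr and Avpr2 gave no value with a minimum mean of 1 CPM, which removes them. Levels per kilobase moved by no more than 1 SD under another length or scaling in all 40 comparisons. Some of these could not move, because the level was 0 or both lengths were equal (Glp1r, Sstr2, Avpr1b, Adra2a and Ffar1, with Gcgr in DMSO and Adrb1 in enzalutamide). Same-numbered libraries of the 2 groups deviated from their group means with correlations between -0.05 and 0.11, and 1 of 5 DMSO libraries correlated best with its own number, so the numbers are not taken as pairs. With the replicate number as a block, the receptors called were 3, 1 higher and 2 lower, and the adjusted p was 0.00279 for Sstr3 and 0.0741 for Gpr142. The counts of Adrb1, Ffar1, Glp1r and Gcgr are too few to show a change.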

Other observations

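Among the genes downstream of the receptors, Prkar1a, a regulatory subunit of protein kinase A, Gna13, a G protein α subunit, and Rgs9 had 0 counts in all 10 libraries. The 3 genes lie together on chromosome 11. There, all 20 consecutive protein-coding genes from Axin2 to Kcnj2 (108920349 to 111076821 of GRCm38/mm10, 2156 kilobases) had 0 counts in both groups, among them Amz2, Wipi1, Map2k6 and Abca5. The protein-coding genes on either side, Cep112 and Sox9, were at 0.875 and 10.8 CPM. Sstr2 and Gcgr lie further along the same chromosome, and Sstr2 had counts in every library. Other runs of consecutive protein-coding genes also had 0 counts in all 10 libraries, some of them with more genes. Examples are 43 genes from Defb33 to Ccdc70 on chromosome 8 and 24 from Hdgfl1 to Prl5a1 on chromosome 13. The run from Axin2 to Kcnj2 was noticed after the values were seen, and its cause was not tested.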
